A study of Mus musculus with 8 samples.

Results

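The expression of matrix metalloproteinases (MMPs), ADAMs, ADAMTS proteases and their tissue inhibitors (TIMPs) was examined in mouse lung after lipopolysaccharide (LPS), with or without the inhibitor YW3-56. The genes were all protein-coding genes of the count files with a mouse symbol made of Mmp, Adam, Adamts or Timp and a digit, and Mmp8 and Mmp9 were left out. This gave 79 of 55416 genes: 22 with an Mmp symbol, 34 ADAM, 19 ADAMTS and 4 TIMP genes. Mmp24os1 met the symbol rule but is not a protease; it lies on the opposite strand to Mmp24, which covers 42.3% of its exon bases, and without it 78 genes remained. A count was found for 64 genes in at least 1 library and for 15 in none. The expression filter, which asks for enough counts in a number of libraries set by the group sizes, passed 53 genes: 15 of the 22 Mmp genes, 18 of the 34 ADAM genes, 16 of the 19 ADAMTS genes and all 4 TIMP genes.

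MMPs are zinc proteases, secreted or held at the cell membrane, that cut collagens, elastin, proteoglycans and other proteins outside the cell, and TIMPs bind and block their active site. ADAMs are membrane proteins of which the active members release the outer part of other membrane proteins, such as cytokines and growth factor ligands, while ADAMTS proteases are secreted and cut proteoglycans, procollagens or von Willebrand factor. In the lung these enzymes take part in matrix turnover, in the passage of leukocytes and in the shedding of cytokines and adhesion molecules.

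Lung RNA was sequenced from 8 female mice of the strain C57BL/6 (C57BL/6J in the methods of the study) aged 6 to 8 weeks, 3 in the control group (mice 1, 2 and 4), 3 in the LPS group (mice 1, 6 and 7) and 2 in the dual-treatment group (mice 2 and 5). LPS, a component of the outer membrane of gram-negative bacteria, was injected into the peritoneal cavity at 35 mg/kg, and tissue was taken 24 h later. The dual-treatment group received YW3-56, an inhibitor of protein arginine deiminases, at 10 mg/kg 0.5 h before LPS. The control group received the solvents, DMSO and saline, in place of the agents. The sources name DMSO for the control and dual-treatment groups and do not mention it for the LPS group. The dual-treatment group has 2 mice, so its spread is known least. The methods of the study name 3 mice per group for sequencing, while its figure gives 2 for this group, and no reason is stated. The files hold raw counts per gene, with totals from 19061949 to 20908608 per library. Values per mouse are CPM, a standard unit in which counts are scaled to the same library total, here with edgeR's TMM factors, and log2FC is the fitted log2 fold change, given ± its standard error (SE). A gene is called where its p-value, adjusted over the 18560 genes that passed the filter by the method of Benjamini and Hochberg, is under 0.05.

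LPS mice 6 and 7 stood apart from the other libraries before any comparison. The 10 genes of squamous epithelium summed to 714 CPM in LPS mouse 6 and to 1990 CPM in LPS mouse 7, while LPS mouse 1 had 38.8 CPM and the 5 mice of the other groups had 40 to 81.3 CPM. Krt13 was the most abundant gene of the list, and the number of its genes at 0 counts was 0 in LPS mice 6 and 7, 5 in LPS mouse 1 and from 1 to 5 in the others. The sum of 8 skeletal muscle genes, led by Ckm, was 242 and 592 CPM in LPS mice 6 and 7 and from 4.81 to 18.5 CPM elsewhere. Most counts of called genes per role or list are therefore also given without these mice. The defining genes of lung epithelium were present in every library: 10 genes, led by Scgb1a1, summed to 68900, 70200 and 75500 CPM in the control mice, 97100, 78500 and 72300 CPM in the LPS mice and 43800 and 56800 CPM in the dual-treated mice.

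Against control, 18 members were higher in the LPS group and 22 lower, of 53 tested. Over all tested genes, 32.6% were called higher and 33.9% lower in this comparison, and the shares of the members were 34% and 41.5%. In the dual-treatment group against control, 11 members were higher and 6 lower, while 9.13% of all tested genes were higher and 7.02% lower. In the dual-treatment group against the LPS group, 24 members were higher and 14 lower, with 31.7% of all tested genes higher and 27.4% lower. The counts per family, role and list given below have to be read beside these shares of all tested genes. The median log2FC of the 53 members was 0.024 for LPS against control (-0.259 to 0.219 over the alternatives), 0.094 for the dual-treatment group against control (-0.039 to 0.179) and 0.304 for the dual-treatment group against LPS (0.159 to 0.616). Over all tested genes these medians were -0.010, 0.004 and 0.060. The comparisons share mice, so their values are given side by side and no overlap between them was computed. With mice left out the filter was applied anew, so those fits can test other numbers of genes. Their total numbers of tested genes are not given here, so their counts over all genes cannot be read as shares. Without LPS mice 6 and 7 the counts were 19 higher and 17 lower of 58 tested for LPS against control, 14 and 7 for the dual-treatment group against control, and 21 and 14 for the dual-treatment group against LPS. Over all tested genes they were 5222 and 5465, 1948 and 1717, and 4996 and 4464. The 6 members lower in the dual-treatment group against control were 0 without dual-treated mouse 2, and 2 without control mouse 2 or without control mouse 4. Over all tested genes the lower calls went from 1302 to 430, 580 and 733 without these mice. With scaling by library size alone, members higher and lower were 17 and 24 for LPS against control, 12 and 4 for the dual-treatment group against control and 28 and 11 for the dual-treatment group against LPS. All tested genes went, in this order, from 6046 and 6300 to 4336 and 7832, from 1695 and 1302 to 1816 and 1030, and from 5875 and 5085 to 7889 and 3225.

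Summed CPM per family is led by a few abundant genes. The summed CPM of the 19 ADAMTS genes was 566, 711 and 683 in the control mice, 1590, 991 and 1230 in the LPS mice and 788 and 620 in the dual-treated mice. All LPS mice lay above the other mice on this measure, and LPS mouse 1 was the highest. Adamts1 alone made 944, 494 and 659 CPM of the sums in the LPS mice, and without it the groups overlapped, at 508, 645 and 615 CPM in the control, 647, 496 and 569 CPM in the LPS and 649 and 532 CPM in the dual-treated mice. For the 22 Mmp genes the sum was 475, 484 and 494 CPM in the control mice, 443, 390 and 382 CPM in the LPS mice and 529 and 476 CPM in the dual-treated mice, so that the LPS mice were the lowest. The 4 TIMP genes summed to 1130, 1000 and 962 CPM in the control mice, 1720, 1290 and 1160 CPM in the LPS mice and 924 and 1070 CPM in the dual-treated mice. The 34 ADAM genes summed to 633, 604 and 636 CPM in the control mice, 750, 658 and 724 CPM in the LPS mice and 800 and 770 CPM in the dual-treated mice, which were the highest. The sums without Timp3 and without Adam9 overlapped between the LPS and control mice. Without Mmp14 the Mmp sums were 390, 399 and 412 CPM in the control, 301, 252 and 252 CPM in the LPS and 360 and 339 CPM in the dual-treated mice, which here lay below the control mice, as they did for the TIMP genes without Timp3 (400 and 474 CPM against 505 to 515 CPM). By genes called for LPS against control, 7 of 16 ADAMTS genes were higher and 3 lower, 4 of 15 Mmp genes higher and 7 lower, 5 of 18 ADAM genes higher and 11 lower and 2 of 4 TIMP genes higher and 1 lower. In the same order, the counts without LPS mice 6 and 7 were 6 and 1 of 17, 5 and 6 of 17, 6 and 9 of 20, and 2 and 1 of 4. These sums were not tested, and in bulk tissue fewer cells of a type and less RNA per cell cannot be told apart.

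**Figure D1:**
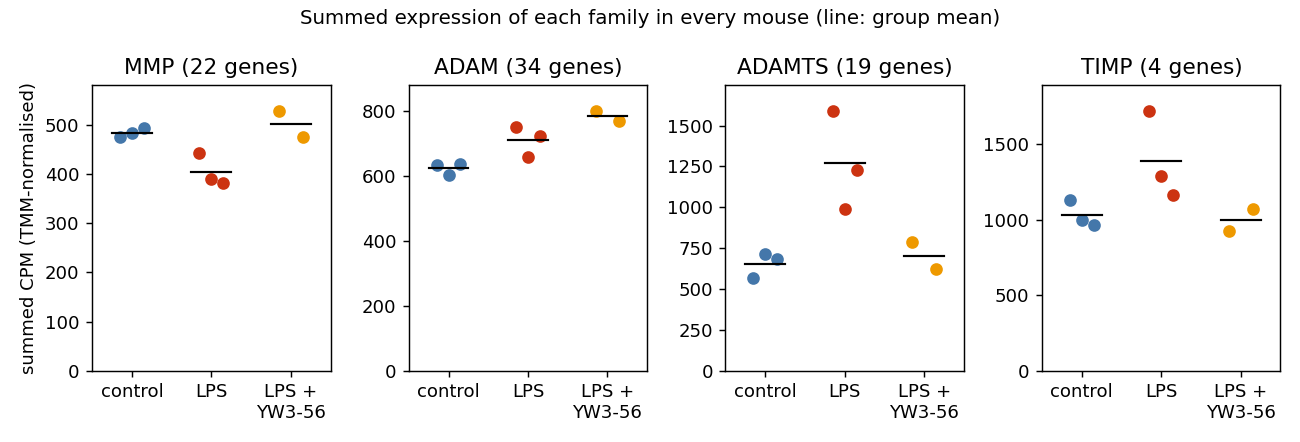
Summed TMM-normalised CPM (vertical axis, from 0) of the MMP, ADAM, ADAMTS and TIMP genes in each mouse of the control, LPS and LPS plus YW3-56 groups (horizontal axis), 1 point per mouse with a line at the group mean. The LPS mice sit between 991 and 1590 CPM for ADAMTS genes, above all other mice, of which Adamts1 holds 494 to 944 CPM, and without it the groups overlap. For MMP genes they sit between 382 and 443 CPM, below all other mice.

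Among the 4 TIMPs, 2 were higher and 1 lower in the LPS group against control, 1 was higher in the dual-treatment group against control, and 1 was higher and 2 lower in the dual-treatment group against LPS, the same without LPS mice 6 and 7. Timp1, a soluble inhibitor of most MMPs that also binds receptors, had 7.39, 5.63 and 9.52 CPM in control mice, 349, 292 and 210 CPM in LPS mice and 74.5 and 41.9 CPM in dual-treated mice. The groups did not overlap: every LPS mouse was above the dual-treated mice, which were above every control mouse. The log2FC of Timp1 was 5.24 ± 0.31 (adjusted p = 1.33e-06) for LPS against control, 2.95 ± 0.30 (adjusted p = 0.000321) for the dual-treatment group against control and -2.29 ± 0.31 (adjusted p = 0.000213) for the dual-treatment group against LPS. This was the largest fitted rise of LPS against control among the named members, 37.7-fold. Timp2, an inhibitor that also takes part in the activation of pro-MMP2 at the cell surface, had 496, 501 and 501 CPM in control mice, 239, 196 and 201 CPM in LPS mice and 321 and 427 CPM in dual-treated mice. Levels were lowest in the LPS mice and intermediate in the dual-treated mice, without overlap. In Timp2, the log2FC against control was -1.24 ± 0.13 (adjusted p = 3.1e-05) in the LPS group and -0.42 ± 0.15 (adjusted p = 0.0857) in the dual-treatment group, and it was 0.82 ± 0.14 (adjusted p = 0.000993) for the dual-treatment group against LPS. Between the dual-treatment and control groups Timp2 was called by DESeq2 (adjusted p = 0.0226) and not in the main edgeR fit, with adjusted p from 0.0141 to 0.356 over all alternatives.

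Timp3, the inhibitor bound to the extracellular matrix and the main one of ADAM17 and ADAMTS proteases, had 628, 491 and 448 CPM in control mice, 1130, 796 and 739 CPM in LPS mice and 523 and 592 CPM in dual-treated mice. LPS mice were above the rest, with LPS mouse 1 highest, and the control and dual-treated mice overlapped. Timp3 differed from control by a log2FC of 0.76 ± 0.19 (adjusted p = 0.00505) in the LPS group and 0.094 ± 0.21 (adjusted p = 0.808) in the dual-treatment group, and between the treated groups by -0.67 ± 0.21 (adjusted p = 0.021). The call against the LPS group was lost without dual-treated mouse 2 (adjusted p = 0.0799) and with scaling by library size (0.129). Timp4, the TIMP with the most restricted expression, had 1.96, 4.69 and 4.14 CPM in control mice, 3.32, 4.79 and 5.53 CPM in LPS mice and 4.81 and 5.44 CPM in dual-treated mice. LPS mice overlapped both other groups, the dual-treated mice were above the controls, and control mouse 1 was the lowest. For Timp4, LPS against control gave a log2FC of 0.34 ± 0.33 (adjusted p = 0.387), the dual-treatment group against control 0.51 ± 0.36 (adjusted p = 0.382) and the dual-treatment group against LPS 0.17 ± 0.36 (adjusted p = 0.699), so that no comparison passed the threshold. Exons of Syn3 on the opposite strand share 21.3% of the Timp3 exon bases and those of Syn2 14.7% of the Timp4 exon bases. Cep295nl on the same strand shares 7.4% of the Timp2 exon bases. Among members described below, opposite-strand exons of Gm45472 share 24.3% of the Mmp2 exon bases. Those of 4731419I09Rik share 17.2% of the Adam15 exon bases. Overlaps of further members are not all listed. The strand setting of the counting is not given in the sources used here, so counts of such overlapping genes are uncertain.

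**Figure D2:**
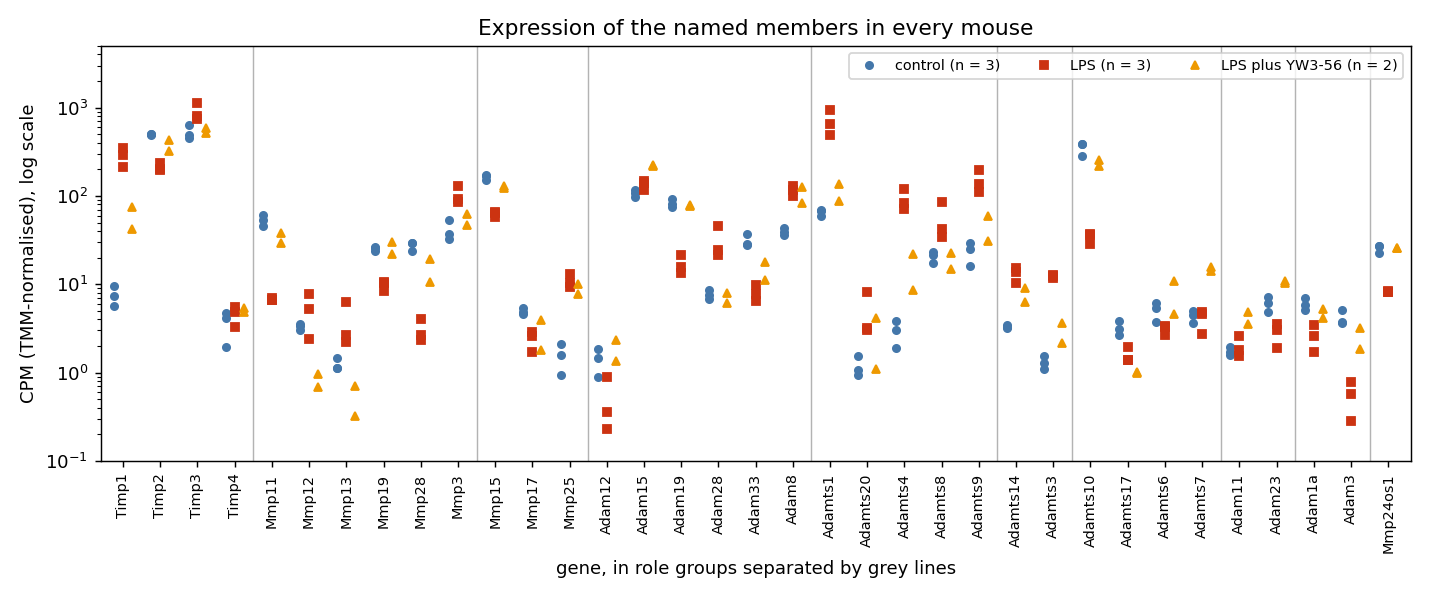
TMM-normalised CPM on a log axis (vertical) of the 35 members named by the rule (horizontal, in role groups separated by grey lines) in each mouse, with circles for control, squares for LPS and triangles for LPS plus YW3-56. Timp1 reaches 210 to 349 CPM in the LPS mice, and Adamts10 falls to between 28.3 and 37.4 CPM there.

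Of the 14 secreted MMPs, 8 passed the filter. Of these, 2 were higher and 3 lower in the LPS group against control, 1 was higher and 2 lower in the dual-treatment group against control, and 4 were higher and 3 lower in the dual-treatment group against LPS. These counts were 3 and 3, 2 and 3, and 3 and 3 of 9 tested without LPS mice 6 and 7. The 3 calls of the dual-treatment group against control were all lost without dual-treated mouse 2 or control mouse 2, and 1 was left without control mouse 1 or control mouse 4. Mmp11, the stromelysin that is activated inside the cell by furin, had 45.8, 60.9 and 53.9 CPM in control mice, 6.7, 6.93 and 6.59 CPM in LPS mice and 29.3 and 38.2 CPM in dual-treated mice. The 3 LPS mice were below all others and differed little from each other. The log2FC of Mmp11 was -2.99 ± 0.15 (adjusted p = 6.88e-07) for LPS against control, -0.67 ± 0.15 (adjusted p = 0.0181) for the dual-treatment group against control and 2.32 ± 0.16 (adjusted p = 7.08e-06) for the dual-treatment group against LPS. The call of Mmp11 in the dual-treatment group against control was lost without control mouse 2 (adjusted p = 0.0716), control mouse 4 (0.053) or dual-treated mouse 2 (0.129). Mmp28, epilysin, known from epithelia, had 23.9, 29.1 and 29.2 CPM in control mice, 2.31, 2.66 and 4.02 CPM in LPS mice and 10.6 and 19.4 CPM in dual-treated mice. Again the LPS mice were lowest, and the dual-treated mice lay between the groups. In Mmp28, the log2FC against control was -3.19 ± 0.28 (adjusted p = 8.65e-06) in the LPS group and -0.87 ± 0.28 (adjusted p = 0.0619) in the dual-treatment group, and it was 2.32 ± 0.29 (adjusted p = 0.000136) for the dual-treatment group against LPS. For Mmp28 the dual-treatment group was called against control by DESeq2 (adjusted p = 0.0122) and not in the main edgeR fit, with adjusted p from 0.00731 to 0.326 over all alternatives. Mmp19, a secreted MMP without the usual place in the collagenase or gelatinase groups, had 26, 23.9 and 26.3 CPM in control mice, 10.3, 10.7 and 8.43 CPM in LPS mice and 30.2 and 22 CPM in dual-treated mice. Control and dual-treated mice overlapped, and the LPS mice lay below them. Mmp19 differed from control by a log2FC of -1.37 ± 0.15 (adjusted p = 4.24e-05) in the LPS group and 0.036 ± 0.17 (adjusted p = 0.912) in the dual-treatment group, and between the treated groups by 1.41 ± 0.17 (adjusted p = 0.000102). Exons of Tmem198b on the opposite strand share 30.6% of the Mmp19 exon bases.

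Mmp3, stromelysin-1, which cuts proteoglycans and activates other pro-MMPs, had 53.3, 32.3 and 37.4 CPM in control mice, 128, 84.5 and 91.9 CPM in LPS mice and 62.6 and 47.4 CPM in dual-treated mice. All LPS mice were above the others, and control mouse 1 overlapped the dual-treated mice. For Mmp3, LPS against control gave a log2FC of 1.31 ± 0.22 (adjusted p = 0.00051), the dual-treatment group against control 0.42 ± 0.24 (adjusted p = 0.265) and the dual-treatment group against LPS -0.88 ± 0.24 (adjusted p = 0.0114). Without dual-treated mouse 5 the last call was lost (adjusted p = 0.0736), as with scaling by library size (0.0578). Mmp13, the main interstitial collagenase of rodents, had 1.13, 1.13 and 1.47 CPM in control mice, 6.23, 2.66 and 2.23 CPM in LPS mice and 0.318 and 0.702 CPM in dual-treated mice. LPS mice were the highest, led by LPS mouse 1, and the dual-treated mice were the lowest, without overlap. The log2FC of Mmp13 was 1.57 ± 0.45 (adjusted p = 0.0115) for LPS against control, -1.27 ± 0.57 (adjusted p = 0.164) for the dual-treatment group against control and -2.84 ± 0.57 (adjusted p = 0.00214) for the dual-treatment group against LPS. For LPS against control the log2FC was 0.98 (adjusted p = 0.0503) without LPS mouse 1 and 2.33 (adjusted p = 0.00253) without LPS mice 6 and 7. The log2FC of Mmp13 in the dual-treatment group against LPS was -2.25 without LPS mouse 1, -3.53 without dual-treated mouse 5 and -3.60 without LPS mice 6 and 7, with adjusted p-values of 0.00329, 0.00558 and 0.000953.

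Mmp12, the macrophage elastase, had 3.57, 3 and 3.36 CPM in control mice, 7.77, 5.26 and 2.4 CPM in LPS mice and 0.681 and 0.966 CPM in dual-treated mice. The dual-treated mice were below all others, and LPS mouse 7 lay below the control mice while LPS mice 1 and 6 lay above them. In Mmp12, the log2FC against control was 0.63 ± 0.38 (adjusted p = 0.163) in the LPS group and -1.998 ± 0.48 (adjusted p = 0.0218) in the dual-treatment group, and it was -2.63 ± 0.49 (adjusted p = 0.00138) for the dual-treatment group against LPS. The call of Mmp12 against control was lost without control mouse 1 (adjusted p = 0.0595), control mouse 2 (0.0514), control mouse 4 (0.0537) or dual-treated mouse 2 (0.137). For LPS against control, Mmp12 was called without LPS mouse 7 (log2FC 0.98, adjusted p = 0.0098) and without LPS mice 6 and 7 (1.24, adjusted p = 0.00831), with adjusted p from 0.00831 to 0.613 over all alternatives. Without LPS mice 6 and 7 the log2FC of the dual-treatment group against LPS was -3.23 (adjusted p = 0.000303). The 10 genes of the macrophage list, led by Chil3, had none at 0 counts in any mouse. They summed to 951, 675 and 912 CPM in the control mice, 981, 1060 and 565 CPM in the LPS mice and 1500 and 2160 CPM in the dual-treated mice. In this sum the dual-treated mice were the highest, whereas for Mmp12 they were the lowest. LPS mice 1 and 6 lay above the control mice and LPS mouse 7 below them, as for Mmp12. The part of macrophages in the result was not tested. Mmp2, gelatinase A, was named outside the rule after its values were seen, and had 39.6, 37.1 and 41.2 CPM in control mice, 40.5, 35.1 and 44.4 CPM in LPS mice and 39.6 and 35 CPM in dual-treated mice. Each group overlapped the others. Mmp2 differed from control by a log2FC of 0.024 ± 0.11 (adjusted p = 0.858) in the LPS group and -0.075 ± 0.12 (adjusted p = 0.734) in the dual-treatment group, and between the treated groups by -0.10 ± 0.12 (adjusted p = 0.51). With scaling by library size the log2FC of Mmp2 changed sign, to -0.26 for LPS against control and to 0.22 for the dual-treatment group against LPS.

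The 9 Mmp members on chromosome 9, Mmp8 being left out, lie between positions 7272514 and 7699587 of GRCm39, in the order Mmp13, Mmp12, Mmp1b, Mmp3, Mmp1a, Mmp10, Mmp27, Mmp20 and Mmp7, a stretch of 427 kb that was noticed after the values were seen. Of these, 4 passed the filter and 3 (Mmp1a, Mmp1b and Mmp20) had no count. Mmp7, matrilysin, did not pass the filter and was singled out after its counts were seen: it had 68 counts in dual-treated mouse 2, 9 in LPS mouse 6, 4 in dual-treated mouse 5, 1 in LPS mouse 7 and 0 in the other 4 libraries. A count of 0 allows up to 3 counts at these totals, so a low level in those mice could be missed. Mmp10, stromelysin-2, had 1 count in all.

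Of the 7 membrane-anchored MMPs, 6 passed the filter. Of these, 2 were higher and 3 lower in the LPS group against control, 2 higher and 1 lower in the dual-treatment group against control, and 2 higher in the dual-treatment group against LPS. Of 7 tested without LPS mice 6 and 7, these counts were 2 and 2, 2 and 1, and 2. Mmp25, a membrane MMP of leukocytes held by a lipid anchor, had 2.1, 0.939 and 1.56 CPM in control mice, 10.3, 13 and 9.27 CPM in LPS mice and 7.76 and 9.97 CPM in dual-treated mice. Both treated groups were above all control mice and overlapped each other. For Mmp25, LPS against control gave a log2FC of 2.82 ± 0.29 (adjusted p = 2.59e-05), the dual-treatment group against control 2.53 ± 0.31 (adjusted p = 0.000831) and the dual-treatment group against LPS -0.29 ± 0.29 (adjusted p = 0.414). The last value changed sign with scaling by library size, to 0.034. The 8 neutrophil genes, led by S100a9 and with none at 0 counts in any mouse, summed to 231, 128 and 134 CPM in the control mice, 2190, 3060 and 1910 CPM in the LPS mice and 1800 and 2480 CPM in the dual-treated mice. All 8 were higher in the LPS group (7 without LPS mice 6 and 7) and 7 in the dual-treatment group against control. Against LPS 4 were higher and 1 lower in the dual-treatment group, 1 and 1 without dual-treated mouse 5 and 1 higher without LPS mice 6 and 7. Their part in the result was not tested. Mmp8 and Mmp9, which neutrophils store in granules, are left out by the rule and serve here as neutrophil genes. Mmp8 had 5.04, 2.86 and 4.14 CPM in control mice, 26.9, 51.7 and 21.7 CPM in LPS mice and 68.6 and 73.2 CPM in dual-treated mice. Mmp9 had 16.2, 10 and 9.06 CPM in control mice, 65, 111 and 72.3 CPM in LPS mice and 85 and 96.5 CPM in dual-treated mice. For these genes every treated mouse was above every control mouse.

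Mmp15, a transmembrane MMP, had 152, 169 and 173 CPM in control mice, 64.6, 66 and 58.1 CPM in LPS mice and 128 and 123 CPM in dual-treated mice. LPS mice were below all others, and the dual-treated mice were below the control mice. The log2FC of Mmp15 was -1.39 ± 0.095 (adjusted p = 2.55e-06) for LPS against control, -0.39 ± 0.10 (adjusted p = 0.0344) for the dual-treatment group against control and 0.997 ± 0.10 (adjusted p = 4.87e-05) for the dual-treatment group against LPS. The call against control was lost without control mouse 2 (adjusted p = 0.112), control mouse 4 (0.0878), dual-treated mouse 2 (0.0917) or dual-treated mouse 5 (0.0868), and with scaling by library size (adjusted p = 0.0513). Mmp17, held at the membrane by a lipid anchor, had 4.8, 5.4 and 4.55 CPM in control mice, 2.91, 1.73 and 2.57 CPM in LPS mice and 1.82 and 3.95 CPM in dual-treated mice. Both treated groups were below the control mice and overlapped each other. In Mmp17, the log2FC against control was -1.03 ± 0.32 (adjusted p = 0.0171) in the LPS group and -0.77 ± 0.36 (adjusted p = 0.181) in the dual-treatment group, and it was 0.26 ± 0.36 (adjusted p = 0.546) for the dual-treatment group against LPS. The call of Mmp17 in the LPS group was lost without control mouse 2 (adjusted p = 0.0544) or LPS mouse 6 (0.0602), and without LPS mice 6 and 7 (log2FC -0.75, adjusted p = 0.187). Mmp14, the membrane MMP that activates pro-MMP2, was named outside the rule after its values were seen and had 84.7, 85.5 and 82.7 CPM in control mice, 142, 138 and 131 CPM in LPS mice and 169 and 137 CPM in dual-treated mice. Every treated mouse was above every control mouse, and the treated groups overlapped. Mmp14 differed from control by a log2FC of 0.70 ± 0.099 (adjusted p = 0.00019) in the LPS group and 0.86 ± 0.11 (adjusted p = 0.000966) in the dual-treatment group, and between the treated groups by 0.16 ± 0.11 (adjusted p = 0.224).

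**Figure D3:**
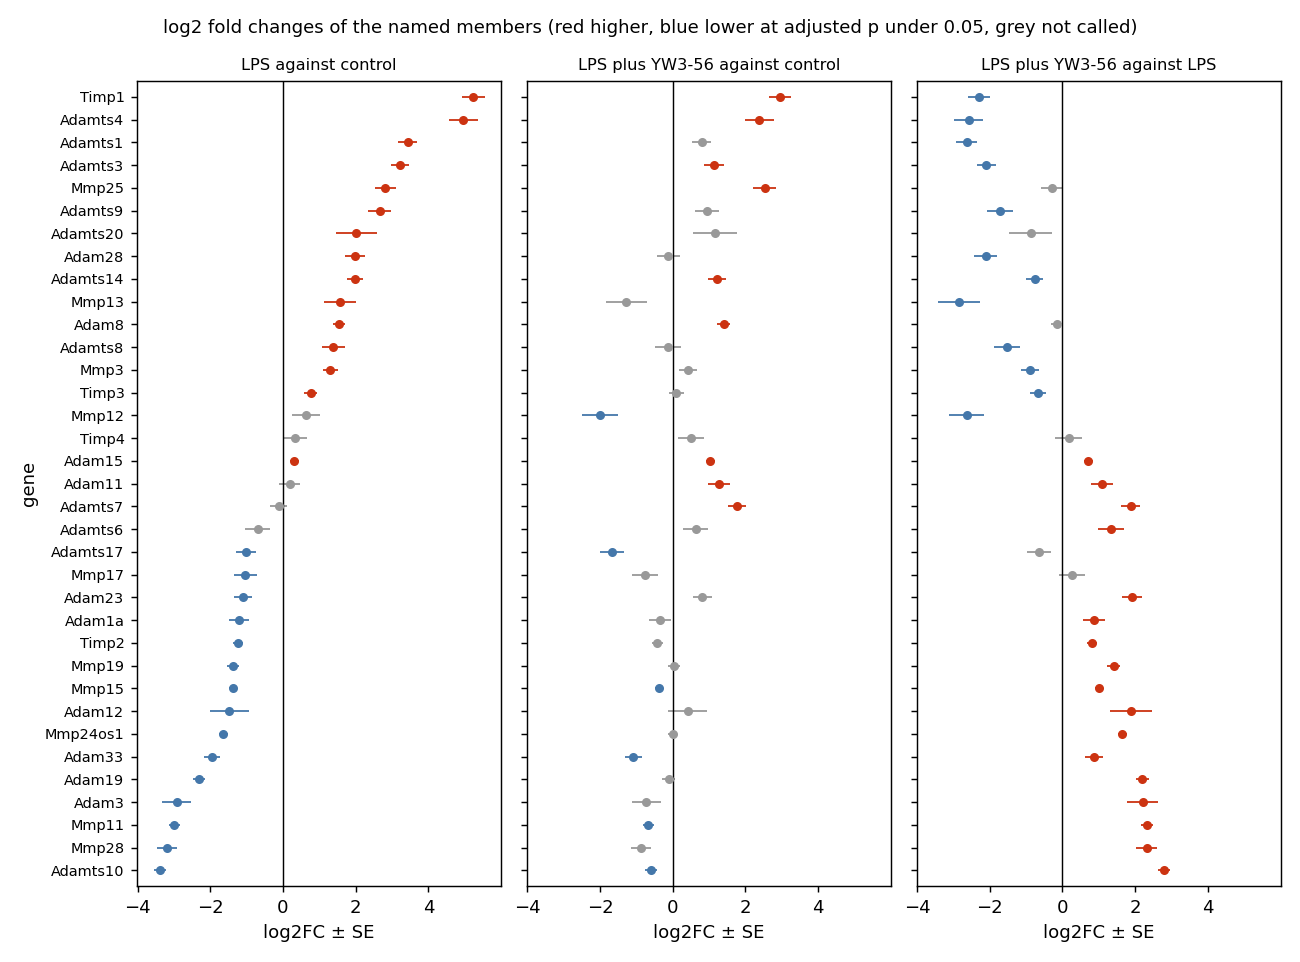
Fitted log2FC (horizontal axis) ± SE of the 35 members named by the rule (vertical axis, ordered by LPS against control) in the 3 comparisons, with red for higher, blue for lower and grey for not called at an adjusted p-value under 0.05. Timp1 has the highest value for LPS against control, 5.24, and Adamts10 the lowest, -3.38.

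The 9 widely expressed ADAM sheddases with an active site all passed the filter. After LPS, 4 were higher and 4 lower against control, in the dual-treatment group against control 2 were higher and 1 lower, and in the dual-treatment group against LPS 5 were higher and 2 lower. The lower count in the LPS group was 3 without LPS mice 6 and 7, and the others were the same. Adam8, a sheddase of leukocytes that acts on adhesion molecules, had 35.8, 42.8 and 39.5 CPM in control mice, 128, 99.9 and 118 CPM in LPS mice and 125 and 82.9 CPM in dual-treated mice. The treated groups were above all control mice and overlapped each other. For Adam8, LPS against control gave a log2FC of 1.55 ± 0.16 (adjusted p = 2.72e-05), the dual-treatment group against control 1.40 ± 0.17 (adjusted p = 0.000921) and the dual-treatment group against LPS -0.15 ± 0.18 (adjusted p = 0.494). The last value was 0.18 with scaling by library size. Adam28, a sheddase first described in lymphocytes, had 7.63, 8.59 and 6.81 CPM in control mice, 21.6, 24.6 and 45.3 CPM in LPS mice and 8.03 and 6.1 CPM in dual-treated mice. LPS mouse 7 was the highest, the other LPS mice were above the rest, and the control and dual-treated mice overlapped. The log2FC of Adam28 was 1.99 ± 0.27 (adjusted p = 0.000159) for LPS against control, -0.12 ± 0.31 (adjusted p = 0.839) for the dual-treatment group against control and -2.11 ± 0.32 (adjusted p = 0.000428) for the dual-treatment group against LPS. Adam15, known from endothelium and epithelium, had 97.3, 108 and 117 CPM in control mice, 139, 116 and 147 CPM in LPS mice and 222 and 218 CPM in dual-treated mice. The dual-treated mice were above all others, and LPS mouse 6 overlapped the control mice. In Adam15, the log2FC against control was 0.32 ± 0.12 (adjusted p = 0.0333) in the LPS group and 1.03 ± 0.13 (adjusted p = 0.000825) in the dual-treatment group, and it was 0.71 ± 0.13 (adjusted p = 0.00102) for the dual-treatment group against LPS. The small change in the LPS group lost its call without control mouse 1 (adjusted p = 0.13), control mouse 2 (0.0841), LPS mouse 1 (0.0687) or LPS mouse 7 (0.0819). It was also lost with scaling by library size (log2FC 0.032, adjusted p = 0.829).

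Adam19, a sheddase of neuregulins, had 82.1, 75.5 and 92.7 CPM in control mice, 15.7, 21.4 and 13.3 CPM in LPS mice and 76.3 and 78.1 CPM in dual-treated mice. Control and dual-treated mice overlapped here, far above the LPS mice. Adam19 differed from control by a log2FC of -2.31 ± 0.16 (adjusted p = 3.03e-06) in the LPS group and -0.11 ± 0.17 (adjusted p = 0.714) in the dual-treatment group, and between the treated groups by 2.2 ± 0.17 (adjusted p = 1.23e-05). Adam33, known for its link to asthma and its expression in mesenchymal cells, had 36.8, 27.8 and 28.5 CPM in control mice, 7.83, 9.88 and 6.48 CPM in LPS mice and 11.3 and 18 CPM in dual-treated mice. LPS mice were lowest and dual-treated mice lay between them and the controls, without overlap. For Adam33, LPS against control gave a log2FC of -1.94 ± 0.22 (adjusted p = 4.57e-05), the dual-treatment group against control -1.08 ± 0.24 (adjusted p = 0.0162) and the dual-treatment group against LPS 0.86 ± 0.24 (adjusted p = 0.0119). The call against control in the dual-treatment group was lost without control mouse 1 (adjusted p = 0.0578) or dual-treated mouse 2 (0.117), and the call against LPS without dual-treated mouse 5 (adjusted p = 0.171). Adam12, a sheddase of heparin-binding EGF-like growth factor, had 0.881, 1.83 and 1.47 CPM in control mice, 0.356, 0.231 and 0.893 CPM in LPS mice and 2.36 and 1.36 CPM in dual-treated mice. LPS mouse 7 overlapped the control mice, and the dual-treated mice were above the LPS mice. The log2FC of Adam12 was -1.48 ± 0.54 (adjusted p = 0.0339) for LPS against control, 0.41 ± 0.53 (adjusted p = 0.654) for the dual-treatment group against control and 1.89 ± 0.57 (adjusted p = 0.0178) for the dual-treatment group against LPS. The lower level in the LPS group was not called without control mouse 2 (adjusted p = 0.108), control mouse 4 (0.0782), LPS mouse 1 (0.0911) or LPS mouse 6 (0.101), or without LPS mice 6 and 7 (adjusted p = 0.0505). Without LPS mouse 7 it was -2.22 (adjusted p = 0.00702). The call against LPS was lost without dual-treated mouse 2 (adjusted p = 0.119), and the log2FC was 2.63 (adjusted p = 0.00444) without LPS mouse 7.

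The remaining sheddases were named outside the rule, after their values were seen, because of their roles. Adam17, the TNF-alpha converting enzyme, had 82, 78.1 and 85.7 CPM in control mice, 95.6, 73.8 and 78 CPM in LPS mice and 85.3 and 99.5 CPM in dual-treated mice. Every group overlapped the others. In Adam17, the log2FC against control was 0.009 ± 0.12 (adjusted p = 0.949) in the LPS group and 0.17 ± 0.13 (adjusted p = 0.404) in the dual-treatment group, and it was 0.17 ± 0.13 (adjusted p = 0.293) for the dual-treatment group against LPS. With scaling by library size the log2FC of Adam17 for LPS against control was -0.28 (adjusted p = 0.0267, from 0.0267 to 0.998 over all alternatives), while the median of all tested genes was -0.29 under that scaling. Adam10, the constitutive sheddase of Notch receptors and cadherins, had 98.3, 87.7 and 85.8 CPM in control mice, 57, 66.1 and 56.8 CPM in LPS mice and 94.9 and 88.5 CPM in dual-treated mice. Control and dual-treated mice overlapped, above the LPS mice. Adam10 differed from control by a log2FC of -0.60 ± 0.098 (adjusted p = 0.000505) in the LPS group and 0.017 ± 0.11 (adjusted p = 0.939) in the dual-treatment group, and between the treated groups by 0.61 ± 0.11 (adjusted p = 0.00104). The small value of the dual-treatment group against control was -0.003 with DESeq2. Adam9, a broadly expressed sheddase, had 163, 141 and 141 CPM in control mice, 270, 226 and 238 CPM in LPS mice and 144 and 139 CPM in dual-treated mice. LPS mice were above the others, which overlapped. For Adam9, LPS against control gave a log2FC of 0.72 ± 0.11 (adjusted p = 0.000234), the dual-treatment group against control -0.072 ± 0.12 (adjusted p = 0.735) and the dual-treatment group against LPS -0.79 ± 0.12 (adjusted p = 0.000425).

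Of the 7 ADAMTS hyalectanases, which cut large proteoglycans such as versican and aggrecan, 5 were higher in the LPS group against control, with a median log2FC of 2.02 over the 7. In the dual-treatment group against control 1 was higher (median 0.80, and 0.15 without dual-treated mouse 2), and in the dual-treatment group against LPS 4 were lower (median -1.52). With scaling by library size these counts were 5, 2 and 4, and the medians were 1.76, 0.84 and -1.17. Without LPS mice 6 and 7 the counts were 4, 2 and 4. The 1 higher was 3 by DESeq2, 4 without a filter and 2 without LPS mouse 1 or LPS mouse 6. Without dual-treated mouse 2 the median for the dual-treatment group against LPS was -2.15. Adamts1, a secreted protease that cuts versican and also inhibits new vessel growth, had 58.7, 66.7 and 69.2 CPM in control mice, 944, 494 and 659 CPM in LPS mice and 138 and 87.3 CPM in dual-treated mice. Every LPS mouse was above every other mouse, and LPS mouse 1 was the highest. The log2FC of Adamts1 was 3.43 ± 0.26 (adjusted p = 4.15e-06) for LPS against control, 0.80 ± 0.26 (adjusted p = 0.07) for the dual-treatment group against control and -2.63 ± 0.29 (adjusted p = 7.1e-05) for the dual-treatment group against LPS. Between the dual-treatment and control groups Adamts1 was called by DESeq2 (adjusted p = 0.0146) and not in the main edgeR fit, with adjusted p from 0.0026 to 0.472 over all alternatives. Adamts4, aggrecanase-1, had 3.03, 1.92 and 3.82 CPM in control mice, 119, 71.4 and 83.8 CPM in LPS mice and 22.1 and 8.61 CPM in dual-treated mice. Levels were lowest in the control mice and highest in the LPS mice without overlap, and dual-treated mouse 2 was above dual-treated mouse 5. In Adamts4, the log2FC against control was 4.96 ± 0.40 (adjusted p = 5.76e-06) in the LPS group and 2.39 ± 0.41 (adjusted p = 0.00471) in the dual-treatment group, and it was -2.58 ± 0.40 (adjusted p = 0.000496) for the dual-treatment group against LPS. Without dual-treated mouse 2 the log2FC was 1.52 (adjusted p = 0.0321) against control and -3.43 (adjusted p = 0.000131) against LPS.

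Adamts9, which cuts versican and aggrecan and is needed in the secretory pathway and at cilia, had 24.9, 29.2 and 16 CPM in control mice, 199, 110 and 136 CPM in LPS mice and 59.2 and 31 CPM in dual-treated mice. LPS mice were above all others, and the dual-treated mice were above the control mice. Adamts9 differed from control by a log2FC of 2.67 ± 0.32 (adjusted p = 5.88e-05) in the LPS group and 0.95 ± 0.33 (adjusted p = 0.0838) in the dual-treatment group, and between the treated groups by -1.72 ± 0.35 (adjusted p = 0.00235). For Adamts9 the dual-treatment group was called against control by DESeq2 (adjusted p = 0.0184) and not in the main edgeR fit, with adjusted p from 0.00157 to 0.596 over all alternatives. Adamts8, a member with high expression in normal lung, had 17.3, 23.1 and 21.5 CPM in control mice, 85.1, 34.6 and 41.7 CPM in LPS mice and 14.7 and 22.8 CPM in dual-treated mice. LPS mouse 1 was far above the other LPS mice, which were still above the remaining mice. For Adamts8, LPS against control gave a log2FC of 1.38 ± 0.32 (adjusted p = 0.00374), the dual-treatment group against control -0.14 ± 0.36 (adjusted p = 0.839) and the dual-treatment group against LPS -1.52 ± 0.37 (adjusted p = 0.00603). Without LPS mice 6 and 7 its log2FC was 2.05 (adjusted p = 0.000282) against control and -2.19 (adjusted p = 0.000501) for the dual-treatment group against LPS. Adamts20, known from skin pigment cell development, had 0.93, 1.55 and 1.06 CPM in control mice, 3.03, 3.23 and 8.15 CPM in LPS mice and 4.17 and 1.1 CPM in dual-treated mice. LPS mice were above the control mice, LPS mouse 7 the highest, and the dual-treated mice overlapped both groups. The log2FC of Adamts20 was 2.02 ± 0.56 (adjusted p = 0.00957) for LPS against control, 1.15 ± 0.61 (adjusted p = 0.236) for the dual-treatment group against control and -0.87 ± 0.60 (adjusted p = 0.234) for the dual-treatment group against LPS. For LPS against control it was 1.41 (adjusted p = 0.0394) without LPS mouse 7, and without LPS mice 6 and 7 it was 1.36 and not called (adjusted p = 0.122).

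All 3 procollagen N-proteinases, which remove the amino-terminal propeptide of fibrillar procollagens, passed the filter, and 2 were higher in each treated group against control and 2 lower in the dual-treatment group against LPS, also without LPS mice 6 and 7. The 2 lower were 1 without LPS mouse 1 or dual-treated mouse 2, and 1 beside 1 higher with scaling by library size. Adamts3, which also activates the lymphatic growth factor VEGF-C, had 1.27, 1.55 and 1.1 CPM in control mice, 11.8, 12.6 and 12.4 CPM in LPS mice and 3.63 and 2.15 CPM in dual-treated mice. The groups did not overlap, with the LPS mice highest and close together. In Adamts3, the log2FC against control was 3.23 ± 0.25 (adjusted p = 4.73e-06) in the LPS group and 1.14 ± 0.27 (adjusted p = 0.0207) in the dual-treatment group, and it was -2.09 ± 0.27 (adjusted p = 0.000163) for the dual-treatment group against LPS. The call in the dual-treatment group against control was lost without control mouse 1 (adjusted p = 0.0652), control mouse 4 (0.0844) or dual-treated mouse 2 (0.211), and in a fit of those groups alone (adjusted p = 0.0505). Adamts14 had 3.43, 3.19 and 3.31 CPM in control mice, 15.4, 10.2 and 13.7 CPM in LPS mice and 6.26 and 9.13 CPM in dual-treated mice. The order of the groups was the same, again without overlap. Adamts14 differed from control by a log2FC of 1.98 ± 0.22 (adjusted p = 3.89e-05) in the LPS group and 1.22 ± 0.24 (adjusted p = 0.00889) in the dual-treatment group, and between the treated groups by -0.77 ± 0.24 (adjusted p = 0.0197). The call against LPS was lost without LPS mouse 1 (adjusted p = 0.0535) or dual-treated mouse 2 (0.112), and with scaling by library size (0.131).

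Of the 9 other ADAMTS genes, 6 passed the filter, with 3 lower in the LPS group against control, 1 higher and 2 lower in the dual-treatment group against control, and 4 higher in the dual-treatment group against LPS. Without LPS mice 6 and 7, of 7 tested, these counts were 1, 1 and 2, and 3. Adamts10, which binds fibrillin microfibrils, had 286, 390 and 387 CPM in control mice, 28.3, 37.4 and 36 CPM in LPS mice and 216 and 254 CPM in dual-treated mice. Every LPS mouse was far below all others, and the dual-treated mice were below the control mice. For Adamts10, LPS against control gave a log2FC of -3.38 ± 0.17 (adjusted p = 6.55e-07), the dual-treatment group against control -0.59 ± 0.17 (adjusted p = 0.0466) and the dual-treatment group against LPS 2.79 ± 0.17 (adjusted p = 4.98e-06). The call against control in the dual-treatment group was lost without control mouse 2 (adjusted p = 0.142), control mouse 4 (0.129), LPS mouse 6 (0.0549), dual-treated mouse 2 (0.245) or dual-treated mouse 5 (0.0569), and with scaling by library size (0.0817). Adamts7, which cuts cartilage oligomeric matrix protein, had 3.67, 5.02 and 4.51 CPM in control mice, 2.73, 4.62 and 4.8 CPM in LPS mice and 15.6 and 14.3 CPM in dual-treated mice. The dual-treated mice were above all others, and the LPS and control mice overlapped. The log2FC of Adamts7 was -0.12 ± 0.24 (adjusted p = 0.682) for LPS against control, 1.76 ± 0.25 (adjusted p = 0.00198) for the dual-treatment group against control and 1.88 ± 0.26 (adjusted p = 0.000228) for the dual-treatment group against LPS. Adamts6, a relative of Adamts10, had 5.33, 3.71 and 6.07 CPM in control mice, 2.67, 3.35 and 3.29 CPM in LPS mice and 11 and 4.65 CPM in dual-treated mice. Levels were lowest in the LPS mice, and dual-treated mouse 2 was far above dual-treated mouse 5. In Adamts6, the log2FC against control was -0.70 ± 0.33 (adjusted p = 0.0902) in the LPS group and 0.63 ± 0.35 (adjusted p = 0.264) in the dual-treatment group, and it was 1.33 ± 0.36 (adjusted p = 0.0105) for the dual-treatment group against LPS. Without dual-treated mouse 2 the last value was 0.56 (adjusted p = 0.202), and without LPS mice 6 and 7 it was 1.54 (adjusted p = 0.0562).

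Adamts17, known from an eye and skeletal syndrome of humans, had 2.64, 3.14 and 3.82 CPM in control mice, 1.96, 1.39 and 1.4 CPM in LPS mice and 0.998 and 1.01 CPM in dual-treated mice. Both treated groups were below the control mice, the dual-treated mice lowest. Adamts17 differed from control by a log2FC of -1.02 ± 0.28 (adjusted p = 0.00959) in the LPS group and -1.67 ± 0.33 (adjusted p = 0.00954) in the dual-treatment group, and between the treated groups by -0.65 ± 0.33 (adjusted p = 0.119). The LPS group was not called without LPS mice 6 and 7 (log2FC -0.70, adjusted p = 0.15), and the dual-treatment group not without dual-treated mouse 2 (adjusted p = 0.0579). Adamts13, the protease that cuts von Willebrand factor, was named outside the rule after its values were seen and had 0.783, 0.657 and 0.414 CPM in control mice, 0.119, 0.116 and 0.0558 CPM in LPS mice and 1.04 and 1.45 CPM in dual-treated mice. LPS mice were below the control mice, at 1 or 2 counts each, and the dual-treated mice were the highest. No fold is given at these counts. Adjusted p-values were 0.00273 for LPS against control, 0.172 for the dual-treatment group against control and 0.000554 for the dual-treatment group against LPS, and the first was 0.0566 without LPS mice 6 and 7.

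The 3 ADAMs known to lack protease activity, which act as adhesion or receptor proteins in nerve tissue, all passed the filter. Of these, 2 were lower in the LPS group against control, 1 was higher in the dual-treatment group against control, and 2 were higher in the dual-treatment group against LPS. Each of these counts was 2 without LPS mice 6 and 7. The 2 lower were 1 by DESeq2, with RLE factors, with a fold over 2, without LPS mouse 1, without LPS mouse 6 or without any single control mouse. Adam23, which takes part in synaptic transmission, had 4.89, 6.1 and 7.13 CPM in control mice, 1.9, 3.06 and 3.52 CPM in LPS mice and 10.3 and 11 CPM in dual-treated mice. The dual-treated mice were highest and the LPS mice lowest, without overlap. For Adam23, LPS against control gave a log2FC of -1.09 ± 0.25 (adjusted p = 0.00391), the dual-treatment group against control 0.82 ± 0.26 (adjusted p = 0.0637) and the dual-treatment group against LPS 1.92 ± 0.27 (adjusted p = 0.000296). For Adam23 the dual-treatment group was called against control by DESeq2 (adjusted p = 0.0349) and not in the main edgeR fit, with adjusted p from 0.0242 to 0.212 over all alternatives. Adam11, a related protein of neurons, had 1.96, 1.69 and 1.56 CPM in control mice, 1.54, 2.6 and 1.79 CPM in LPS mice and 3.59 and 4.87 CPM in dual-treated mice. The dual-treated mice were above the other groups, which overlapped. The log2FC of Adam11 was 0.19 ± 0.29 (adjusted p = 0.59) for LPS against control, 1.28 ± 0.31 (adjusted p = 0.0215) for the dual-treatment group against control and 1.096 ± 0.31 (adjusted p = 0.0128) for the dual-treatment group against LPS. Without control mouse 1 (adjusted p = 0.0519), control mouse 2 (0.0771), control mouse 4 (0.0903), dual-treated mouse 2 (0.0552) or dual-treated mouse 5 (0.119) the call of Adam11 against control was lost, and the call against LPS was lost without dual-treated mouse 5 (adjusted p = 0.119). For LPS against control the log2FC of Adam11 was -0.092 with scaling by library size.

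Of the 22 other ADAM genes, known mainly from the male reproductive tract or without a role named here, 6 passed the filter. Of these, 1 was higher and 5 lower in the LPS group against control, and 5 were higher and 1 lower in the dual-treatment group against LPS. Most of these calls rest on low counts: Adam7, Adam4 and Adam1b had 0 to 5 counts in each LPS mouse, and Adam30 had 0 to 5 in each control mouse. With a mean of at least 1 CPM as filter, 2 were tested. Of those, 2 were lower in the LPS group against control and 2 higher in the dual-treatment group against LPS. Of 8 tested without LPS mice 6 and 7, the counts were 2 and 4, and 4 and 1. The 5 higher were 3 without LPS mouse 1 or control mouse 4, 2 of 8 without dual-treated mouse 5 and 2 of 4 in a fit of those groups alone. Between the dual-treatment and control groups 0 of 6 were called by edgeR, 0 at an unadjusted p under 0.05 with a fold over 2, and 0 of 11 by DESeq2. Adam3, a sperm surface protein needed for binding to the egg coat, had 3.62, 3.71 and 5.1 CPM in control mice, 0.771, 0.578 and 0.279 CPM in LPS mice and 1.86 and 3.16 CPM in dual-treated mice. Control mice were highest, dual-treated mice next and LPS mice lowest, without overlap. In Adam3, the log2FC against control was -2.93 ± 0.40 (adjusted p = 0.000148) in the LPS group and -0.72 ± 0.39 (adjusted p = 0.246) in the dual-treatment group, and it was 2.21 ± 0.43 (adjusted p = 0.00179) for the dual-treatment group against LPS. Adam1a, which is needed in sperm precursor cells for the transport of other ADAMs, had 5.14, 5.87 and 7.03 CPM in control mice, 1.72, 3.47 and 2.57 CPM in LPS mice and 4.17 and 5.22 CPM in dual-treated mice. LPS mice were lowest, and the other groups overlapped. Adam1a differed from control by a log2FC of -1.22 ± 0.28 (adjusted p = 0.00349) in the LPS group and -0.35 ± 0.30 (adjusted p = 0.468) in the dual-treatment group, and between the treated groups by 0.86 ± 0.30 (adjusted p = 0.0339). The last call was lost without control mouse 2 (adjusted p = 0.0519), control mouse 4 (0.0601), LPS mouse 1 (0.0816), LPS mouse 7 (0.0653), dual-treated mouse 2 (0.0574) or dual-treated mouse 5 (0.196), and in a fit of those groups alone (adjusted p = 0.0921). The gene Gm42878 on the same strand shares 22.1% of the Adam1a exon bases. How reads in shared bases were counted is not known, so the values of Adam1a are uncertain. Mmp24os1, the member that is not a protease, had 26.9, 22.7 and 27.2 CPM in control mice, 8.31, 8.2 and 8.09 CPM in LPS mice and 25.9 and 25.6 CPM in dual-treated mice. Every LPS mouse was below the others, which overlapped. For Mmp24os1, LPS against control gave a log2FC of -1.64 ± 0.12 (adjusted p = 3.22e-06), the dual-treatment group against control 0.007 ± 0.12 (adjusted p = 0.979) and the dual-treatment group against LPS 1.65 ± 0.13 (adjusted p = 1.1e-05). Its value for the dual-treatment group against control was -0.013 with DESeq2.

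The 12 other members that passed the filter ranged from 0 to 196 CPM, and Adam30, Adam1b, Adam7 and Adam4, with the low counts given above, are among them. Against control, 1 of them was higher and 5 lower in the LPS group, and 1 was higher in the dual-treatment group, and in the dual-treatment group against LPS 5 were higher and 1 lower. The 11 members with counts that did not pass the filter reached at most 3.09 CPM in any library and were not tested.

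Between genes, levels were compared as RPKM, which is the CPM divided by the exon length in kilobases, with the mean ± SD over the mice of a group. In the control group Timp2 had the highest mean RPKM, 112 ± 0.578, followed by Timp3 at 64.1 ± 11.5, Adam9 at 34.2 ± 2.84, Mmp15 at 30.4 ± 2.03 and Adamts10 at 27 ± 4.48. With the longest transcript as length Adamts10 was at 65.2 and Mmp15 at 32 RPKM, so that their order depends on the length used. In the LPS group the order by mean RPKM was Timp1 at 145 ± 35.7, Adamts1 at 128 ± 41.5, Timp3 at 109 ± 25.7, then Mmp3 at 56.3 ± 12.9 and Adam9 at 56.3 ± 5.24. The RPKM of Timp1, Adamts1 and Timp3 overlapped within their spread. In the dual-treatment group Timp2 at 83.8 ± 16.7 and Timp3 at 68.4 ± 5.94 RPKM led again, and Timp1 was at 29.7 ± 11.8 RPKM. With the longest transcript as length, Timp3 took the first place in the LPS and dual-treatment groups, with 185 and 116 RPKM.

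Genes outside the families that activate, bind or inhibit these proteases were followed in a list of 29, of which 26 passed the filter. Over all tested genes, 32.6% were higher and 33.9% lower after LPS against control. These shares were 9.13% and 7.02% for the dual-treatment group against control, and 31.7% and 27.4% for it against LPS. In this list, 8 were higher and 10 lower after LPS against control. In the dual-treatment group 5 were higher and 5 lower against control, and 6 were higher and 9 lower against LPS. Of 27 tested without LPS mice 6 and 7, the counts were 8 and 7, 3 and 6, and 6 and 10. With scaling by library size, LPS against control had 7 and 12, and the dual-treatment group against LPS 9 and 7. For the dual-treatment group against control the 5 and 5 were 1 and 1 without dual-treated mouse 2 or control mouse 2, 1 and 2 without control mouse 4, 3 and 1 without control mouse 1, 3 and 3 without LPS mouse 6 and 5 and 3 without dual-treated mouse 5. Plaur, the receptor that gathers urokinase at the cell surface, had 79.4, 62.3 and 61.8 CPM in control mice, 886, 538 and 470 CPM in LPS mice and 170 and 125 CPM in dual-treated mice. All LPS mice were above the dual-treated mice, which were above the control mice. The log2FC of Plaur was 3.22 ± 0.25 (adjusted p = 5.3e-06) for LPS against control, 1.12 ± 0.26 (adjusted p = 0.0183) for the dual-treatment group against control and -2.10 ± 0.28 (adjusted p = 0.000211) for the dual-treatment group against LPS. The call of Plaur in the dual-treatment group against control was lost without control mouse 2 (adjusted p = 0.0707), control mouse 4 (0.0679) or dual-treated mouse 2 (0.136). A2m, a protease inhibitor that traps its target, had 0.196, 0.141 and 0.138 CPM in control mice, 4.81, 4.56 and 3.18 CPM in LPS mice and 1.04 and 0.307 CPM in dual-treated mice. LPS mice were above all others, and the control libraries held 3 or 4 counts each, so no fold is given. Its adjusted p-values were 3.45e-05 for LPS against control, 0.0424 for the dual-treatment group against control and 0.00153 for the dual-treatment group against LPS. The call of A2m in the dual-treatment group against control was lost without control mouse 1 (adjusted p = 0.0872), control mouse 2 (0.121), control mouse 4 (0.123), LPS mouse 1 (0.0525), LPS mouse 6 (0.0597) or dual-treated mouse 2 (0.499), and without LPS mice 6 and 7 (0.0643).

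Reck, a membrane-anchored inhibitor of several MMPs and ADAM10, had 78.1, 76.7 and 80.4 CPM in control mice, 20.1, 17.8 and 20.2 CPM in LPS mice and 32.5 and 41.8 CPM in dual-treated mice. LPS mice were lowest and control mice highest, without overlap. In Reck, the log2FC against control was -2.02 ± 0.11 (adjusted p = 1.08e-06) in the LPS group and -1.08 ± 0.12 (adjusted p = 0.00066) in the dual-treatment group, and it was 0.94 ± 0.12 (adjusted p = 0.000179) for the dual-treatment group against LPS. Tspan33 and Tspan17 are tetraspanins that carry ADAM10 to the cell surface. Tspan33 had 3.62, 3 and 2.62 CPM in control mice, 12.6, 7.74 and 12.9 CPM in LPS mice and 2.5 and 1.32 CPM in dual-treated mice. Every LPS mouse was above the rest. Tspan33 differed from control by a log2FC of 1.84 ± 0.29 (adjusted p = 0.000394) in the LPS group and -0.69 ± 0.34 (adjusted p = 0.211) in the dual-treatment group, and between the treated groups by -2.54 ± 0.35 (adjusted p = 0.000262). Tspan17 had 40.7, 35.9 and 40.4 CPM in control mice, 10.6, 13.6 and 8.71 CPM in LPS mice and 26.1 and 32.3 CPM in dual-treated mice. Here the LPS mice were the lowest. For Tspan17, LPS against control gave a log2FC of -1.83 ± 0.17 (adjusted p = 1.23e-05), the dual-treatment group against control -0.42 ± 0.18 (adjusted p = 0.149) and the dual-treatment group against LPS 1.41 ± 0.18 (adjusted p = 0.000158). Adamtsl5, an ADAMTS-like protein without a protease domain, had 49.7, 57 and 55 CPM in control mice, 6.05, 8.2 and 7.26 CPM in LPS mice and 36.8 and 54.9 CPM in dual-treated mice. Control and dual-treated mice overlapped, and the LPS mice were far below them. The log2FC of Adamtsl5 was -2.91 ± 0.18 (adjusted p = 1.47e-06) for LPS against control, -0.23 ± 0.18 (adjusted p = 0.417) for the dual-treatment group against control and 2.68 ± 0.18 (adjusted p = 7.4e-06) for the dual-treatment group against LPS.

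Of 27 listed proteins known to be shed or cut by these proteases, all passed the filter. Over all tested genes, 32.6% were higher and 33.9% lower after LPS against control. These shares were 9.13% and 7.02% for the dual-treatment group against control, and 31.7% and 27.4% for it against LPS. In this list, 15 were higher and 6 lower after LPS against control (median log2FC 0.55). In the dual-treatment group 4 were higher and 8 lower against control, and 5 were higher and 16 lower against LPS (median -0.58). With scaling by library size these counts were 11 and 9, 6 and 7, and 7 and 10, and without LPS mice 6 and 7 they were 15 and 4, 7 and 8, and 4 and 18. The 8 lower were 1 without dual-treated mouse 2, 2 without control mouse 4, 3 without control mouse 1 or control mouse 2 and 5 without dual-treated mouse 5. Vcan, versican, the main proteoglycan cut by ADAMTS hyalectanases, had 4.94, 6.24 and 4.55 CPM in control mice, 160, 103 and 100 CPM in LPS mice and 61.1 and 37.3 CPM in dual-treated mice. The groups did not overlap, with the LPS mice highest. In Vcan, the log2FC against control was 4.53 ± 0.27 (adjusted p = 1.34e-06) in the LPS group and 3.23 ± 0.27 (adjusted p = 0.000121) in the dual-treatment group, and it was -1.30 ± 0.26 (adjusted p = 0.00214) for the dual-treatment group against LPS. Ereg, the growth factor epiregulin, had 0.636, 0.282 and 0.46 CPM in control mice, 6.53, 1.44 and 3.41 CPM in LPS mice and 0.681 and 1.4 CPM in dual-treated mice. LPS mice were above the others, LPS mouse 1 the highest. Ereg differed from control by a log2FC of 3.03 ± 0.60 (adjusted p = 0.00152) in the LPS group and 1.18 ± 0.67 (adjusted p = 0.272) in the dual-treatment group, and between the treated groups by -1.85 ± 0.63 (adjusted p = 0.0299). Without LPS mouse 1 the log2FC of Ereg was 2.40 (adjusted p = 0.00443) against control, and without LPS mice 6 and 7 it was 3.82 (adjusted p = 0.000601). Its call in the dual-treatment group against LPS was lost without LPS mouse 1 (adjusted p = 0.1) or dual-treated mouse 2 (0.145), and with scaling by library size (0.0538). That log2FC was -1.22 without LPS mouse 1, -2.48 (adjusted p = 0.0411) without dual-treated mouse 5 and -2.64 (adjusted p = 0.00558) without LPS mice 6 and 7.

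Eln, elastin, had 701, 598 and 596 CPM in control mice, 94.3, 163 and 126 CPM in LPS mice and 337 and 305 CPM in dual-treated mice. The control mice were the highest and the LPS mice the lowest. For Eln, LPS against control gave a log2FC of -2.31 ± 0.19 (adjusted p = 6.43e-06), the dual-treatment group against control -0.98 ± 0.21 (adjusted p = 0.0127) and the dual-treatment group against LPS 1.33 ± 0.20 (adjusted p = 0.000392). The call in the dual-treatment group against control was lost without dual-treated mouse 2 (adjusted p = 0.0626) or dual-treated mouse 5 (0.0553). Vwf, von Willebrand factor, the substrate of ADAMTS13, had 498, 657 and 639 CPM in control mice, 166, 146 and 191 CPM in LPS mice and 304 and 550 CPM in dual-treated mice. Levels were lowest in the LPS mice, and dual-treated mouse 5 overlapped the control mice. The log2FC of Vwf was -1.84 ± 0.22 (adjusted p = 6.26e-05) for LPS against control, -0.49 ± 0.24 (adjusted p = 0.207) for the dual-treatment group against control and 1.35 ± 0.23 (adjusted p = 0.00094) for the dual-treatment group against LPS. Mertk, a receptor for apoptotic cells that ADAM17 sheds, had 75, 77.7 and 74.5 CPM in control mice, 25.4, 23.7 and 19.8 CPM in LPS mice and 56.6 and 53.3 CPM in dual-treated mice. Control mice were highest and LPS mice lowest, without overlap. In Mertk, the log2FC against control was -1.72 ± 0.11 (adjusted p = 1.59e-06) in the LPS group and -0.46 ± 0.12 (adjusted p = 0.0242) in the dual-treatment group, and it was 1.26 ± 0.11 (adjusted p = 2.37e-05) for the dual-treatment group against LPS. The call of Mertk against control in the dual-treatment group was lost without control mouse 1 (adjusted p = 0.0672), control mouse 2 (0.0859), control mouse 4 (0.053), dual-treated mouse 2 (0.0669) or dual-treated mouse 5 (0.0681).

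Markers of the cells of the lung were summed in the same way. The 8 endothelial genes, led by Cdh5, summed to 4100, 4510 and 4680 CPM in the control mice, 2330, 1950 and 1970 CPM in the LPS mice and 3790 and 4080 CPM in the dual-treated mice, and 6 of 8 were lower in the LPS group. The groups had this order also for Adamts10, Mmp15, Timp2, Mmp11, Mmp28 and Adam33, among others. For Adam19, Mmp19, Adam10 and Mmp24os1, also lower after LPS, the control and dual-treated mice overlapped. Over all tested genes, 33.9% were lower in the LPS group, and the share with this order of the groups was not computed. Adam15, known from endothelium and epithelium, had another order, with the dual-treated mice above all others. The 8 fibroblast genes, led by Npnt, summed to 1580, 1660 and 1520 CPM in the control mice, 1280, 1320 and 1230 CPM in the LPS mice and 1700 and 1230 CPM in the dual-treated mice, and 2 were higher and 4 lower in the LPS group (1 and 2 without LPS mice 6 and 7, 1 and 6 with scaling by library size). The 5 smooth muscle genes, led by Des, summed to 292, 367 and 318 CPM in the control mice, 296, 383 and 451 CPM in the LPS mice and 189 and 238 CPM in the dual-treated mice. The 5 monocyte genes, led by Ly6c2, summed to 43.2, 41.6 and 45.4 CPM in the control mice, 97.8, 109 and 69.1 CPM in the LPS mice and 216 and 286 CPM in the dual-treated mice, where 4 were higher against control. In the LPS group 3 were higher and 2 lower against control, 1 and 2 without LPS mouse 6, without control mouse 1 or with scaling by library size, and 1 and 1 without LPS mice 6 and 7. None of the genes in these 4 lists was at 0 counts in any library. Of the epithelial genes 3 were higher and 4 lower in the LPS group, 3 and 2 without LPS mouse 6, LPS mouse 7 or control mouse 4, 2 and 1 without LPS mice 6 and 7 and 2 and 7 with scaling by library size. Of the macrophage genes 1 was higher and 3 lower in the LPS group, 2 and 3 without LPS mouse 7 2 and 2 without control mouse 1, 1 and 2 without control mouse 4 or without LPS mice 6 and 7, and 3 lower with scaling by library size, while 6 macrophage genes were higher in the dual-treatment group against control. The part of these cells in the results was not tested.

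Promoter sequences are shown for the 3 MMP or TIMP members with the largest rise of LPS against control, to set their start regions side by side. They are RefSeq promoters of the table for GRCm38.p6, from 250 bases before to 50 after the listed start, and each matched GRCm39 exactly at 1 place of its chromosome: Timp1 at chrX:20736155-20736454 on the plus strand, Mmp25 at chr17:23864194-23864493 on the minus strand and Mmp13 at chr9:7272264-7272563 on the plus strand. Capitals mark matches to motifs searched on both strands. The AP-1 motif was TGANTCA. The NF-kB motif was GGGNNTTCC. The TATA motif was TATAAA.
Timp1: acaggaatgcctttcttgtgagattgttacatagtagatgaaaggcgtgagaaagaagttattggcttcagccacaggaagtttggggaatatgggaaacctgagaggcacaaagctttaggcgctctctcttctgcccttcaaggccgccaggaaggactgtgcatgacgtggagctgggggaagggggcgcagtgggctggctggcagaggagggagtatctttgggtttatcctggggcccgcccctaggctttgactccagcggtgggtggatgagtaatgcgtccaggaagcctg
Mmp25: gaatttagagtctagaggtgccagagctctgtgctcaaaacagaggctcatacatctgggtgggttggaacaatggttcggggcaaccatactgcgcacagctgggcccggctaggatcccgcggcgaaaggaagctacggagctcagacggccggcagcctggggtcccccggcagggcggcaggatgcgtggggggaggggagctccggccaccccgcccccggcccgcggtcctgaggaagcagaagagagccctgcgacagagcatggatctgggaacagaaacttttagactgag
Mmp13: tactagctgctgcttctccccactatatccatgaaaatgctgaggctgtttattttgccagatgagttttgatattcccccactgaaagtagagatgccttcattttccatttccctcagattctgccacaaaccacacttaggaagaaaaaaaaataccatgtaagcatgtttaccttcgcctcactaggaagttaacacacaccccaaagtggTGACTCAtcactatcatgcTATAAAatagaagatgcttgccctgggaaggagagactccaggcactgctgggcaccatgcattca
Mmp13 held 1 AP-1 match, TGACTCA at bases 216 to 222 of the printed sequence, a motif whose letters match both strands at the same place, and 1 TATA match at bases 235 to 240, and these do not overlap. Timp1 and Mmp25 held no match in this window, which for Timp1 is set on base 20736405 while the annotated gene starts at 20736316, and for Mmp25 on 23864243 in place of 23864251. Over the 32851 promoters of the table, 7.81% held the AP-1 letters, 5.82% the NF-kB letters and 13.6% the TATA letters. Of the 79 members, 49 had a promoter in the table, 54 promoters in all, of which 24.1% held AP-1, 3.70% NF-kB and 25.9% TATA letters. The AP-1 letters were found in 13 members, among them 8 Mmp genes, all of the chromosome 9 group, in which Mmp27 alone lacked them. The same 8 of these 9 genes held the TATA letters. A match is a description of the sequence, and no test was made of it.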

How the data were processed

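RNA of 8 lungs was read as raw counts per gene, which the authors made, per their processing notes, with FastQC 0.11.9, Trim Galore, HISAT2 2.2.1 on GRCm39 and featureCounts 2.0.1. The annotation release, strand setting and treatment of multiply mapped reads are not stated there, so counts of overlapping genes and close paralogs are uncertain. Of 55416 gene IDs, 54749 matched GENCODE release 39 of the mouse genome; the 667 others held 0.0533% of the counts and kept their place in the library sizes.

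In R 4.3.3, edgeR 4.0.16 was used with TMM factors, filterByExpr by group and the quasi-likelihood F test, in a fit of all 8 libraries by group alone with 5 residual degrees of freedom. P-values were adjusted by the Benjamini-Hochberg method over 18560 genes. The SE was taken from the log2FC and F. RPKM used the length of the union of all exons. The fit was tested on simulated data.

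The members and lists were chosen with earlier results of these data known. Named are all TIMPs that passed the filter, and every member with a mean of at least 1 CPM called with a fold over 2 in at least 1 comparison, which gave 35. Also named are, of each list of activators, inhibitors or shed proteins, the 3 highest and 3 lowest called genes for LPS against control with that mean. Of these, 1 is not reported here. Alternatives were DESeq2 1.42.0, RLE factors, library size alone, no filter, a mean of 1 CPM as filter, a fold over 2 with unadjusted or adjusted p, fits of the compared groups alone, each mouse left out in turn, and LPS mice 6 and 7 left out. Transcript isoforms, protein levels and protease activity were not analysed here.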

Additional observations from a re-analysis of the deposited data

How the results depend on the processing

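The dual-treatment group has 2 mice, so where 1 is left out the lone mouse is assumed to vary like the other groups, as is LPS mouse 1 without mice 6 and 7. No paired analysis was possible because the compared groups share fewer than 2 replicate numbers. With library size alone the median log2FC of all tested genes moved from -0.010 to -0.294 for LPS against control, from 0.004 to 0.044 for the dual-treatment group against control and from 0.060 to 0.383 for the dual-treatment group against LPS; the cause was not tested. Calls were tallied over the alternatives for the 35 members named by the rule and the 6 named outside it. The genes of the lists outside the families are not in this tally. Called results kept their call in 1286 cases and lost it in 105, and 0 changed sign. Of the lost calls, 19 came from each rule with a fold over 2, which drops every call under that fold. Results not called stayed so in 615 cases, became called without a change of sign in 39 and changed sign in 42. Among those 42, Adam17 for LPS against control with library size alone was also called (adjusted p = 0.0267). The 6 members lower in the dual-treatment group against control became 3 with a fold over 2 and unadjusted p, 3 with a fold over 2 and adjusted p, and 0 to 7 with 1 mouse left out. With the longest transcript as length, mean RPKM of Timp3 in the LPS group was 185 and of Timp1 154.

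The log2FC values that changed sign were all of results not called in the main fit, and ranges are the lowest to highest with 1 mouse left out. For LPS against control, Adam11 (0.187) had -0.052 to 0.342, -0.092 with library size alone and -0.164 without LPS mice 6 and 7. Timp4 (0.337) had -0.111 without LPS mice 6 and 7, and Adamts7 (-0.118) had -0.248 to 0.105. Adam17 (0.009) had -0.103 to 0.09, -0.284 with library size alone and -0.02 without a filter. Mmp2 (0.024) had -0.048 to 0.118, -0.259 with library size alone and -0.004 without a filter. In the dual-treatment group against control, the ranges were -0.066 to 0.726 for Adam12 (0.412), -0.36 to 0.037 for Adam28 (-0.119), -0.522 to 0.116 for Adamts8 (-0.138), -0.132 to 1.789 for Adamts20 (1.154), -0.034 to 0.245 for Timp3 (0.094), -0.243 to 0.219 for Mmp19 (0.036) and -0.145 to 1.093 for Adamts6 (0.633). Mmp24os1 (0.007) had -0.074 to 0.042, -0.013 with DESeq2 and -0.01 with RLE factors. Adam10 (0.017) had -0.064 to 0.077, -0.003 with DESeq2 and 0 with RLE factors. In the dual-treatment group against LPS, Adam8 (-0.147) had -0.5 to 0.1 and 0.185 with library size alone. Timp4 (0.172) had -0.016 to 0.326 and Mmp14 (0.163) -0.019 to 0.282. Mmp17 (0.264) had -0.422 to 0.695 and -0.016 without LPS mice 6 and 7. Mmp25 (-0.29) had 0.034 and Mmp2 (-0.1) 0.225 with library size alone, and Adam17 (0.165) had -0.055 without LPS mice 6 and 7.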
